A study of Caenorhabditis elegans with 8 samples.

Results

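Aminoacyl-tRNA synthetases are the enzymes that join each amino acid to its transfer RNAs. Their genes were taken from the deposited gene table by name, as protein-coding genes whose name is a one-letter amino acid code followed by ars, a hyphen and a number. The rule matched 33 names, and 32 protein-coding genes of the 46904 genes in the table were kept. The name left out was cars-2, a pseudogene with 113 counts over all libraries. The 32 genes covered all 20 amino acids. They were divided by compartment into 15 genes for cytosolic enzymes, 12 for mitochondrial enzymes and 5 single-gene members (gars-1, hars-1, kars-1, qars-1 and tars-1). The single-gene members have no second gene for their amino acid under the name rule and were kept apart, although tars-1 is described as cytoplasmic. The genes cars-1, mars-1, wars-1 and vars-1 have no partner under the name rule either, and were placed by their descriptions or by background knowledge. The description of cars-1 names no compartment.

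The worms were Caenorhabditis elegans of the strain CL2006, which carries a transgene for human amyloid beta expressed in muscle. Bacteria delivering cpr-6 RNAi (4 libraries) or an empty vector (4 libraries) fed the worms over 2 generations at 20 °C. Pools of whole worms were collected at day 6 of adulthood in both groups, both groups carry the transgene, and the genotype field reads WT for both. The series text states 4 biological repeats; no label names the cultures they came from, so p-values refer to the spread among the 8 libraries, which may be technical. Libraries were made with CEL-Seq2, which reads the 3′ ends of polyadenylated RNA, and the series asks what lower expression of cpr-6, a cathepsin B-like protease gene, changes in worms that make amyloid beta. In RNA from whole worms, fewer cells of a type and less RNA per cell cannot be told apart.

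Each synthetase recognises its amino acid and its tRNAs, activates the amino acid with ATP and transfers it to the tRNA end. Most eukaryotes keep a cytosolic set that charges tRNAs for nuclear-encoded messages and a mitochondrial set, also nuclear-encoded, that charges the tRNAs of the mitochondrial genome. Some genes supply both compartments, and in animals several cytosolic synthetases sit together in a multienzyme complex.

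Total counts per library were 8184412 to 10837163 under cpr-6 RNAi and 9489866 to 12506320 with the empty vector. Synthetase genes took 0.3185% to 0.3558% of these counts under cpr-6 RNAi and 0.3442% to 0.3663% with the empty vector. The targeted gene cpr-6 stood at 77.1, 80.0, 65.2 and 102 CPM (raw counts scaled to a common library total) in the cpr-6 RNAi libraries, against 741, 737, 791 and 774 CPM in the empty vector libraries. The groups lay far apart, and the log2 fold change of cpr-6 was -3.22 (SE 0.114; adjusted p = 2e-10, edgeR quasi-likelihood test with Benjamini-Hochberg adjustment over all genes). One library stood apart: genes of the mitochondrial genome took 2.144% of counts in cpr-6 RNAi replicate 4 and 0.805% to 1.156% in the 7 others.

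The median transcript level of cytosolic enzyme genes was above that of mitochondrial enzyme genes in every library. Divided by coding length, the median cytosolic gene stood at 45.8 ± 1.82 CPM per kb under cpr-6 RNAi and 49.9 ± 1.45 CPM per kb with the empty vector (SD, n = 4 each). The median mitochondrial gene stood at 3.67 ± 0.459 CPM per kb under cpr-6 RNAi and 3.97 ± 0.238 CPM per kb with the empty vector. The ratio of these medians within a library was 11.1 to 14.9 under cpr-6 RNAi and 11.9 to 13.8 with the empty vector, so the groups overlapped. Without division by length, which a 3′ end method may not need, the ratio of medians was 9.14 ± 0.942 under cpr-6 RNAi and 9.24 ± 0.623 with the empty vector. Summed over the genes, the cytosolic level was 6.29 to 7.38 times the mitochondrial one under cpr-6 RNAi and 6.51 to 7.17 times with the empty vector, in CPM. When genes were divided by name suffix alone, the log2 ratio of the medians in CPM was 2.44 under cpr-6 RNAi and 2.69 with the empty vector, against 3.19 under cpr-6 RNAi and 3.21 with the empty vector by compartment. The 5 single-gene members had a median of 56.8 ± 2.83 CPM per kb under cpr-6 RNAi and 57.8 ± 4.99 CPM per kb with the empty vector. In the empty vector libraries, 13 of 15 cytosolic, 4 of 12 mitochondrial and 5 of 5 single-gene members lay above 16 CPM, the median of all genes tested.

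**Figure D1:**
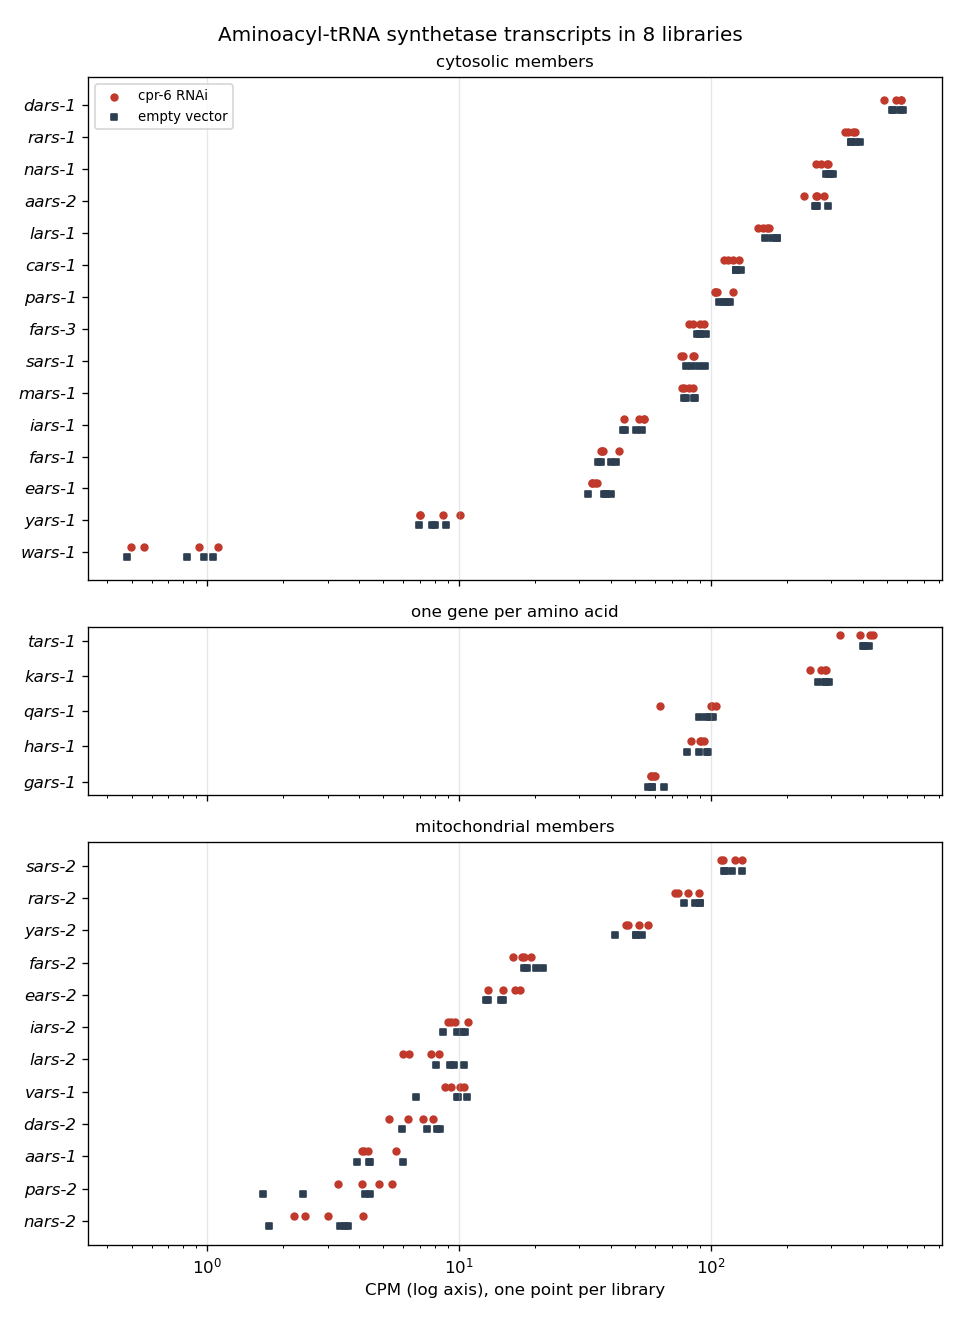
Level of each synthetase gene in each library, in CPM on a log axis and not divided by length, with 1 point per library for cpr-6 RNAi and empty vector and genes ordered within cytosolic, mitochondrial and single-gene members. The points of both groups overlap for every gene, and dars-1 is highest in all 8 libraries while wars-1 lies near 1 CPM.

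A few genes carried most of the synthetase message. The 6 most abundant members took 59.6% to 62.0% of the synthetase counts under cpr-6 RNAi and 60.3% to 61.3% with the empty vector. The 12 mitochondrial members together took 8.83% to 10.3% under cpr-6 RNAi and 9.06% to 9.83% with the empty vector. Ordered by CPM per kb in empty vector libraries, the sequence began with dars-1, tars-1, nars-1, rars-1 and kars-1 and ended with nars-2, pars-2, aars-1 and wars-1. Of the 31 neighbouring pairs in this order, 20 overlapped in their ranges under cpr-6 RNAi and 22 with the empty vector, so much of the order is not fixed beyond the spread between libraries. The gene at the top, dars-1, did not overlap tars-1 in either group.

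The aspartyl enzyme gene dars-1 (WBGene00001094; WBcel235 chromosome III, 9489176 to 9491236, minus strand) had 568, 540, 567 and 485 CPM in cpr-6 RNAi libraries, against 579, 564, 521 and 528 CPM in empty vector libraries. The groups overlapped, with the lowest value in cpr-6 RNAi replicate 4. Per length, dars-1 stood at 339 ± 24.6 CPM per kb under cpr-6 RNAi and 344 ± 17.6 CPM per kb with the empty vector. The arginyl gene rars-1 had 371, 340, 367 and 349 CPM under cpr-6 RNAi, against 377, 390, 359 and 358 CPM with the empty vector. The asparaginyl gene nars-1 had 273, 288, 292 and 260 CPM under cpr-6 RNAi, against 305, 285, 296 and 295 CPM with the empty vector. The alanyl gene aars-2 had 280, 263, 262 and 234 CPM under cpr-6 RNAi, against 290, 263, 258 and 262 CPM with the empty vector. In each of these genes the lowest and highest libraries of the groups overlapped. The deposited descriptions name aars-2 the cytoplasmic and aars-1 the mitochondrial alanyl enzyme, which is the reverse of the usual suffixes. The deposited terms of aars-2, however, hold mitochondrion and not cytosol, so its description and terms differ.

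Among the other cytosolic genes, the leucyl gene lars-1 had 160, 166, 153 and 169 CPM under cpr-6 RNAi, against 182, 175, 183 and 163 CPM with the empty vector. Replicates 1 and 3 of cpr-6 RNAi lay below all empty vector libraries, and the others did not. The cysteinyl gene cars-1, the prolyl gene pars-1, the methionyl gene mars-1 and the seryl gene sars-1 averaged 120, 109, 80.3 and 80.6 CPM under cpr-6 RNAi and 126, 113, 82.3 and 86.9 CPM with the empty vector. The isoleucyl gene iars-1 averaged 51.3 ± 4.16 CPM under cpr-6 RNAi and 48.4 ± 3.95 CPM with the empty vector. The glutamyl gene ears-1 averaged 34.3 ± 0.615 CPM under cpr-6 RNAi and 37.1 ± 3.29 CPM with the empty vector.

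The cytosolic phenylalanyl enzyme is built from an alpha subunit, made from fars-1, and a beta subunit, made from fars-3. These subunit genes were not at equal levels. fars-3 had 84.5, 93.9, 90.7 and 81.9 CPM under cpr-6 RNAi, against 90.0, 88.2, 95.7 and 90.5 CPM with the empty vector. fars-1 had 36.8, 43.2, 37.1 and 36.7 CPM under cpr-6 RNAi, against 36.5, 40, 42.1 and 35.7 CPM with the empty vector. Per kb of coding length, the ratio of fars-3 to fars-1 was 2.14 ± 0.110 under cpr-6 RNAi and 2.21 ± 0.145 with the empty vector (SD, n = 4 each), and it was above 1 in 8 of 8 libraries.

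wars-1, described in the deposited table as the cytosolic tryptophanyl enzyme, was the least abundant member (WBGene00006945; WBcel235 chromosome V, 18853127 to 18859221, minus strand). It had 0.56, 0.499, 0.923 and 1.10 CPM under cpr-6 RNAi, against 1.05, 0.83, 0.965 and 0.48 CPM with the empty vector. These are 65 counts in all 8 libraries, below the filter on low counts, so wars-1 was not tested. The 3′ end of wars-1 in the Ensembl annotation of the same build lies 423 bases beyond the span of the gene in the deposited table. Reads from an end outside the counted span would not enter its count, and whether this sets its level was not tested. The same holds for iars-2, whose annotated end lies 524 bases beyond its deposited span.

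All 5 single-gene members were well expressed. The threonyl gene tars-1 had 390, 438, 428 and 324 CPM under cpr-6 RNAi, against 404, 407, 423 and 400 CPM with the empty vector. The lysyl gene kars-1 had 273, 283, 285 and 247 CPM under cpr-6 RNAi, against 284, 286, 294 and 266 CPM with the empty vector. The glutaminyl gene qars-1 (WBGene00001336; WBcel235 chromosome IV, 15008503 to 15013183, minus strand) had 100, 105, 101 and 62.7 CPM under cpr-6 RNAi, against 102, 95, 99.1 and 89.5 CPM with the empty vector. In all of these genes cpr-6 RNAi replicate 4 was the lowest of the 8 libraries, and for qars-1 it lay far below the other 7. The histidyl gene hars-1 averaged 89.4 ± 4.48 CPM under cpr-6 RNAi and 90.8 ± 7.83 CPM with the empty vector. The glycyl gene gars-1 averaged 58.6 ± 1.13 CPM under cpr-6 RNAi and 59.4 ± 3.81 CPM with the empty vector. The deposited terms place kars-1 and hars-1 in both the cytosol and the mitochondrion. Those of gars-1 hold mitochondrion and not cytosol.

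Mitochondrial enzyme genes were of unequal level among themselves. The seryl gene sars-2 had 111, 133, 109 and 124 CPM under cpr-6 RNAi, against 121, 133, 112 and 114 CPM with the empty vector. The arginyl gene rars-2 had 71.8, 80.7, 89.4 and 74.2 CPM under cpr-6 RNAi, against 86.2, 90.4, 90.1 and 78.2 CPM with the empty vector. The tyrosyl gene yars-2 had 46.9, 45.8, 51.7 and 56.1 CPM under cpr-6 RNAi, against 50.1, 50.4, 53.2 and 41.6 CPM with the empty vector. The other 9 lay below 20 CPM in the mean of the empty vector libraries. The phenylalanyl gene fars-2 averaged 17.9 ± 1.17 CPM under cpr-6 RNAi and 19.6 ± 1.62 CPM with the empty vector. The asparaginyl gene nars-2 had the lowest mean CPM of the mitochondrial genes in both groups (per kb, pars-2 and aars-1 were lower with the empty vector and aars-1 under cpr-6 RNAi), at 2.43, 3, 4.15 and 2.20 CPM under cpr-6 RNAi, against 3.37, 3.63, 3.51 and 1.76 CPM with the empty vector. At these levels the counting error is large, and small differences were not detectable at this depth. Over the empty vector libraries the median coefficient of variation was 10.4% for mitochondrial members, 5.15% for cytosolic members and 12% for all genes tested.

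Both members of a cytosolic and mitochondrial pair were present for 11 amino acids, which allows a comparison within each library. Per kb of coding length, the cytosolic gene was higher in 8 of 8 libraries for 8 amino acids, and the mitochondrial gene was higher in 8 of 8 libraries for 2 (serine and tyrosine). On this scale the glutamyl pair was close to equal. The ratio of ears-1 to ears-2 per kb was 0.984, 1.11, 0.806 and 0.846 under cpr-6 RNAi, against 0.914, 1.22, 1.10 and 1.3 with the empty vector. Without division by length ears-1 was the higher one in all 8 libraries, at 2.24 ± 0.331 times ears-2 under cpr-6 RNAi and 2.71 ± 0.400 times with the empty vector. In CPM the cytosolic gene was thus higher in 8 of 8 libraries for 9 amino acids, so the glutamyl order depends on the scale.

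The ratio was widest for aspartate, asparagine and alanine. dars-1 stood at 92.2 ± 12.5 times dars-2 per kb under cpr-6 RNAi and at 83.7 ± 17.8 times with the empty vector. nars-1 stood at 76.1 ± 16.4 times nars-2 per kb under cpr-6 RNAi and at 80.8 ± 32.2 times with the empty vector. aars-2 stood at 47.7 ± 9.46 times aars-1 per kb under cpr-6 RNAi and at 48.2 ± 8.87 times with the empty vector. The mitochondrial genes of these pairs were all below 10 CPM. Proline and leucine followed. The ratio of pars-1 to pars-2 per kb was 20.0 ± 4.16 under cpr-6 RNAi and 32.4 ± 14 with the empty vector, and that of lars-1 to lars-2 was 17.0 ± 3.35 under cpr-6 RNAi and 13.8 ± 1.76 with the empty vector. With that limit on iars-2, the isoleucyl, arginyl and phenylalanyl alpha subunit ratios per kb were 4.53, 3.27 and 1.78 under cpr-6 RNAi and 4.22, 3.10 and 1.64 with the empty vector. All 11 ratios overlapped between the groups. The descriptions of dars-2, nars-2 and ears-2 name no compartment, and neither mitochondrion nor cytosol is among their deposited terms. These genes were placed by name suffix or background knowledge.

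In serine and tyrosine the order was turned round. The ratio of sars-1 to sars-2 per kb was 0.692, 0.580, 0.631 and 0.562 under cpr-6 RNAi, against 0.707, 0.570, 0.643 and 0.711 with the empty vector. The ratio of yars-1 to yars-2 per kb was 0.0923, 0.136, 0.103 and 0.0769 under cpr-6 RNAi, against 0.0860, 0.0953, 0.103 and 0.119 with the empty vector. Every library lay below 1 for both amino acids. The compartment of the tyrosyl genes was also taken from their names: the deposited terms put yars-2 in both the mitochondrion and the cytosol and place yars-1 in neither.

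**Figure D2:**
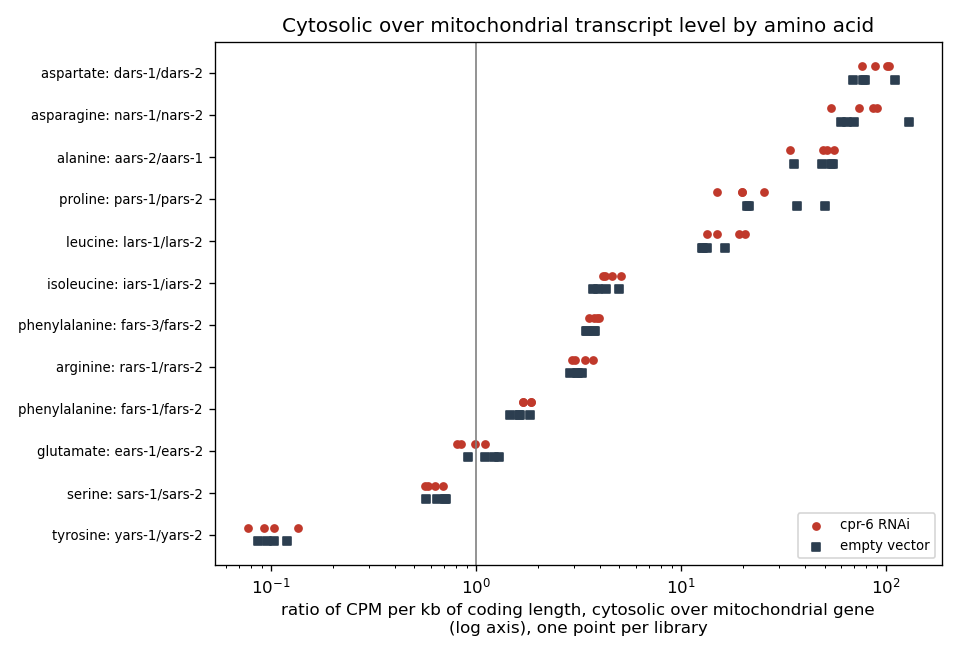
Ratio of the cytosolic to the mitochondrial gene in CPM per kb of coding length, on a log axis, with 1 point per library and a row for each pair. Aspartate, asparagine and alanine lie at the right, glutamate straddles 1, and serine and tyrosine lie below 1 in all libraries of both groups.

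For valine the table holds vars-1 under the name rule, and the cytosolic enzyme is known in C. elegans as glp-4, which the rule did not take. vars-1 is counted as mitochondrial here from background knowledge, although its deposited term is cytosol. glp-4 stood at 7.89 ± 1.18 times vars-1 per kb under cpr-6 RNAi and at 9.44 ± 2.56 times with the empty vector. With vars-1, yars-1 and yars-2 left out of the medians, an alternative chosen after seeing the data, the log2 ratio of the cytosolic to the mitochondrial median in CPM was 3.51 under cpr-6 RNAi and 3.42 with the empty vector, beside 3.19 and 3.21 with them.

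No synthetase gene passed the test between cpr-6 RNAi and empty vector. Of the 31 members tested, edgeR's quasi-likelihood test called 0 at an adjusted p of 0.05, beside 1 of 10932 genes tested in all (0.00915%), which was cpr-6 itself. At an unadjusted p of 0.05 edgeR counted 1 member, lars-2, beside 3.85% of all genes. DESeq2 and limma voom each called 0 members and counted 0 at an unadjusted p of 0.05. No member had groups that did not overlap in CPM, beside 2.63% of all genes. The 95% intervals, taken from limma voom, bound what these libraries leave possible: 28 of the 31 lay within a 1.5-fold change in either direction and 30 within a 2-fold change. The median width to either side was 0.21 on the log2 scale for all members tested, 0.19 for cytosolic, 0.33 for mitochondrial and 0.33 for all genes.

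**Figure D3:**
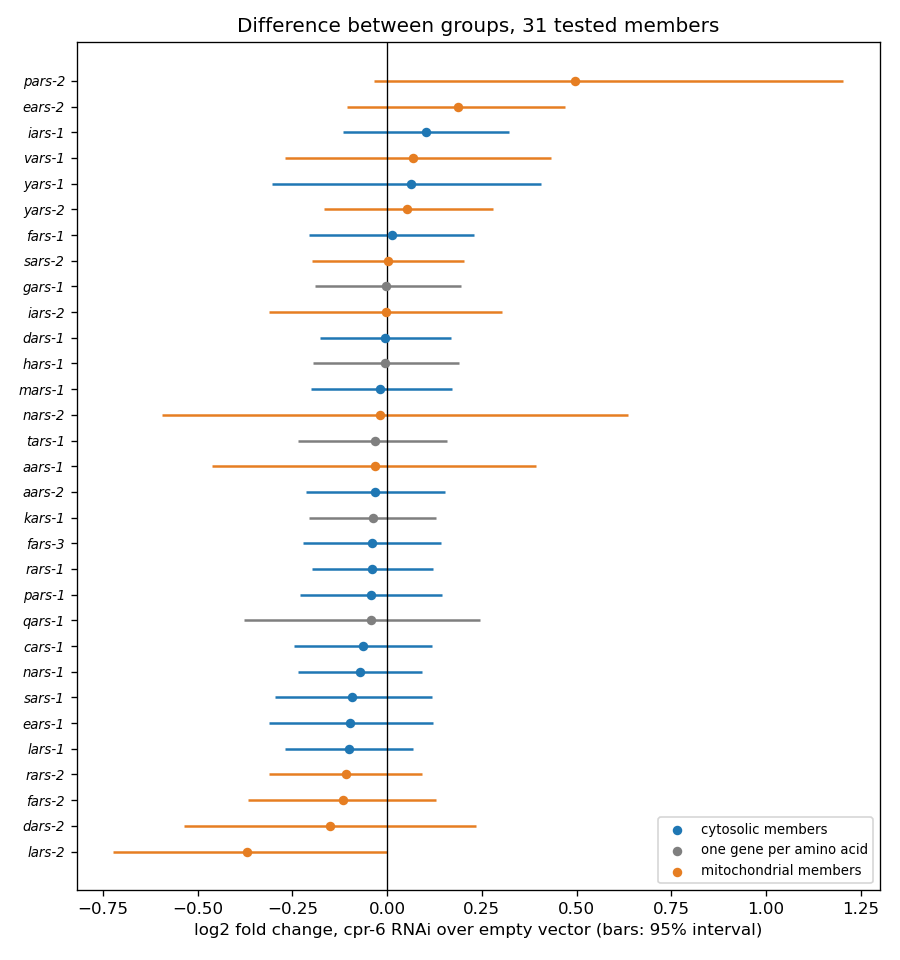
Log2 fold change of each tested synthetase gene, cpr-6 RNAi over empty vector, with its 95% interval from limma voom. The intervals are narrow for most cytosolic and single-gene members and widest for pars-2, nars-2 and other scarce mitochondrial members.

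Log2 fold changes lay between -0.37 and 0.50, with 23 of 31 members below 0 and a median of -0.03. Over all genes tested 49.8% lay below 0 and the median was 0.001. With upper quartile scaling 19 of 31 members and 45% of all genes lay below 0, and the median of all genes was 0.018. Below 0 were 11 of 14 cytosolic members (median -0.04), 7 of 12 mitochondrial members (median -0.01) and 5 of 5 single-gene members (median -0.03). The 5 members with a deposited term for the multienzyme complex, dars-1, ears-1, kars-1, pars-1 and qars-1, lay between -0.10 and -0.01. Synthetases of class I and class II, the families that differ in the fold of the catalytic domain, had medians of -0.03 each. None of these values belongs to a called gene.

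The leucyl mitochondrial gene lars-2 (WBGene00003074; WBcel235 chromosome I, 7457153 to 7460756, minus strand) had the smallest p. It had 7.75, 6.29, 8.30 and 5.99 CPM in cpr-6 RNAi libraries, against 10.4, 9.53, 8.07 and 9.20 CPM in empty vector libraries. Of the cpr-6 RNAi libraries, 1 lay above the lowest empty vector library, so the groups overlapped. The log2 fold change was -0.37 (SE 0.170; unadjusted p = 0.0465 and adjusted p = 0.997, edgeR), and over all alternatives it lay between -0.48 and -0.26. lars-2 therefore did not pass the test.

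The prolyl mitochondrial gene pars-2 had the highest log2 fold change, with the widest interval. It had 4.11, 5.39, 4.80 and 3.30 CPM under cpr-6 RNAi, against 4.43, 1.66, 4.21 and 2.40 CPM with the empty vector. Replicates 2 and 3 of cpr-6 RNAi exceeded all empty vector libraries, and the groups overlapped. The log2 fold change was 0.50 (SE 0.292, adjusted p = 0.997, edgeR). The 95% interval, -0.04 to 1.20, came from limma voom, which put the log2 fold change at 0.58. The edgeR value was 0.29 without empty vector replicate 2 and 0.69 without empty vector replicate 1, and pars-2 was not called in either case. The glutamyl mitochondrial gene ears-2 had 14.9, 13, 17.5 and 16.7 CPM under cpr-6 RNAi, against 14.9, 12.8, 14.6 and 13 CPM with the empty vector, with a log2 fold change of 0.19 (adjusted p = 0.997, edgeR). The aspartyl gene dars-2 had 6.25, 7.89, 7.20 and 5.25 CPM under cpr-6 RNAi, against 5.90, 8.18, 8.42 and 7.44 CPM with the empty vector. The other mitochondrial genes aars-1, iars-2 and vars-1 averaged 4.56, 9.67 and 9.63 CPM under cpr-6 RNAi and 4.68, 9.81 and 9.29 CPM with the empty vector.

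The share of members below 0 moved with the libraries included, and most with cpr-6 RNAi replicate 4. In cpr-6 RNAi replicate 4, 27 of 31 tested members (87.1%) lay below their own mean over the 8 libraries, beside 46.8% of all genes. These were 14 of 14 cytosolic, 5 of 5 single-gene and 8 of 12 mitochondrial members. That library was the lowest of the 8 for 11 members (35.5%), beside 26.8% of all genes. Its median deviation from the genes' own means, on the log2 scale, was -0.14 for cytosolic, -0.18 for single-gene and -0.09 for mitochondrial members and 0.04 for all genes. Without it, 15 of 31 members lay below 0 (48.4%), beside 50.6% of all genes, and the median was 0.003. With any 1 of the other 7 libraries left out, 19 to 26 members lay below 0. Empty vector replicate 1 stood apart the other way, with 7 of 31 members (22.6%) below their own mean, beside 48.3% of all genes; without it, 19 members lay below 0. The log2 fold change of qars-1 was -0.04 over all 8 libraries and 0.11 without cpr-6 RNAi replicate 4.

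**Figure D4:**
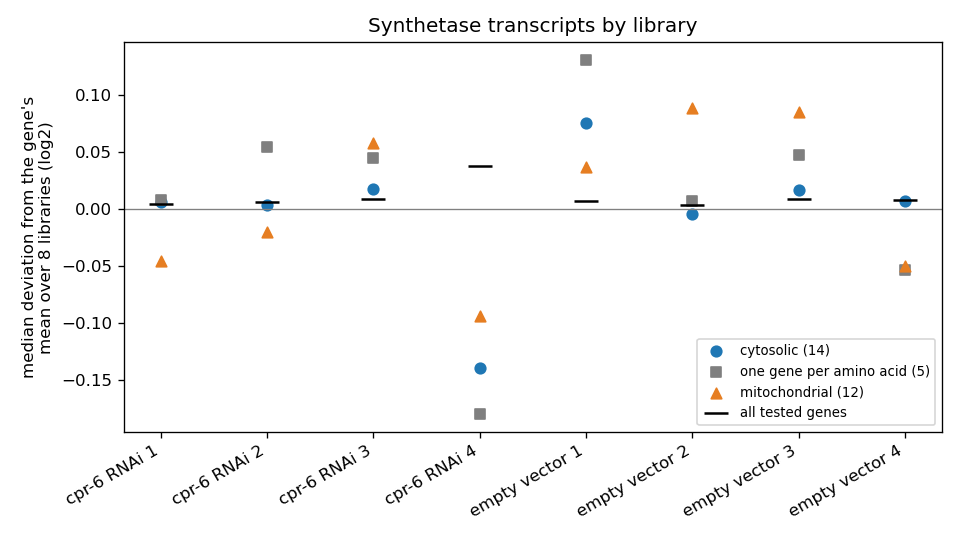
Median deviation of genes from their own mean over the 8 libraries, on the log2 scale of TMM-scaled CPM, with 1 symbol per library for cytosolic, single-gene (one gene per amino acid) and mitochondrial members and a dash for all genes tested; cpr-6 RNAi libraries stand left of empty vector libraries. cpr-6 RNAi replicate 4 lies lowest for cytosolic members (median -0.14) and single-gene members (median -0.18), while the other libraries lie nearer to 0.

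Cell type markers also set cpr-6 RNAi replicate 4 apart. All 10 of 10 germline and oocyte markers were lowest there, and their summed level was 6650 CPM in that library. Over the groups that sum was 6650 to 9820 CPM under cpr-6 RNAi and 8690 to 9360 CPM with the empty vector. The 8 body wall muscle markers summed to 5060 to 6590 CPM under cpr-6 RNAi and 3510 to 5940 CPM with the empty vector. All 8 were lowest in empty vector replicate 1. Their sum was highest in cpr-6 RNAi replicate 4, where unc-54 alone had 4340 CPM. In that library 5 of the 8 were highest, and myo-3, act-4 and ttn-1 were not. The 4 hypodermis markers summed to 1160 to 1950 CPM under cpr-6 RNAi and 889 to 1320 CPM with the empty vector, again highest there. Intestine markers (8) summed to 20900 to 31600 CPM under cpr-6 RNAi and 23400 to 31200 CPM with the empty vector. Neuron markers (6) summed to 966 to 1070 CPM under cpr-6 RNAi and 935 to 1050 CPM with the empty vector. Sperm markers (6) summed to 6.74 to 26.8 CPM under cpr-6 RNAi and 5.16 to 16.5 CPM with the empty vector; spe-9 was at 0 in some libraries of each group and spe-11 in some empty vector libraries. Each of the other markers had counts in every library. The sperm sum was also highest in cpr-6 RNAi replicate 4. The neuron sum was highest there by little, with 2 of 6 neuron markers highest and 1 lowest in that library. Over all genes 31.5% were highest and 26.8% lowest there. The part of these markers in the synthetase values was not tested.

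Of 6 cytosolic elongation factor genes, edgeR called 0 and counted 0 at an unadjusted p of 0.05, with 4 log2 fold changes above 0 and 2 below. The one with the smallest p, eef-1B.2, a subunit of the exchange factor of elongation factor 1, averaged 269 ± 11.6 CPM under cpr-6 RNAi and 245 ± 15 CPM with the empty vector (log2 fold change 0.15; adjusted p = 0.997, edgeR). Its groups did not overlap, with a lowest value of 258 CPM under cpr-6 RNAi and a highest of 256 CPM with the empty vector, as in 2.63% of all genes. Of 7 genes measured for initiation factor 2, its kinases and the transcription factor downstream, edgeR called 0 and counted 0 unadjusted, with 3 above 0 and 4 below. In that list atf-5, the ATF4 counterpart of C. elegans, averaged 89.3 ± 20.4 CPM under cpr-6 RNAi and 80.2 ± 9.06 CPM with the empty vector. Of 5 mitochondrial translation factors measured, edgeR called 0 and counted 0 unadjusted, with 3 above 0 and 2 below. Among these the elongation factor gene gfm-1 averaged 13.7 ± 1.83 CPM under cpr-6 RNAi and 12.6 ± 0.813 CPM with the empty vector.

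Neighbouring genes may affect the counts of some synthetases, since the use of strand in counting is not given in the sources used here. Overlaps were measured on whole gene spans, introns included, and whether they changed any count was not tested. Of the 32 members, 11 overlap another gene with counts, and for 9 that gene lies over the 3′ end that CEL-Seq2 reads. For yars-1 the neighbour ekl-4, on the opposite strand, shares 117 bases and has 11210 counts, against 668 for yars-1, so the level of yars-1 is uncertain. For ears-1 the neighbour aph-2 lies on the same strand over 182 bases with 3859 counts, against 2971 for ears-1. ears-2 shares 48 bases over its 3′ end with tag-261, on the opposite strand, which has 2079 counts against 1210 for ears-2. rars-1 likewise shares 38 bases with cee-1, which has 18573 counts against 30135 for rars-1. For dars-1 the overlap with nlp-36 is 13 bases, with 15562 counts for nlp-36 against 45092 for dars-1.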

How the data were processed

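The authors deposited raw counts per gene for each library, and these counts were used; the other columns were not used here. The submitters' processing notes name HTSeq 0.12.4, TopHat2 2.1.1, DESeq2 1.30.1 and cutadapt 2.10 with WBcel235. Neither strand use nor collapsing of molecular identifiers is given in the sources used here, and amplified copies in the counts would make libraries look more precise than they are. CPM are counts scaled to a common library total, and log2 fold changes use TMM scaling. Counts of all genes were fitted with edgeR 4.0.16 in R 4.3.3 (TMM; genes kept by filterByExpr, minimum count 10; quasi-likelihood test of treatment, robust, two-sided), and p-values were adjusted by Benjamini-Hochberg over 10932 genes. Intervals came from limma 3.58.1 voom. DESeq2 1.42.0 was an alternative. Every gene of the name rule is described, with cpr-6 and at most 3 genes per other list. Compartments came from gene names, background knowledge, and the deposited descriptions and terms. The members and lists were chosen with earlier results of these data known. On simulated data over 10781 genes, 31 of 62 genes set to a 1.5-fold change and 56 of 64 set to 2-fold were recovered. Of 10590 unchanged genes, 10 were called. The simulated data held many changed genes at once and no library that stood apart, so recovery in the real libraries may be lower. Libraries of a group differed by more than counting noise, and all 8 were kept.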

Additional observations from a re-analysis of the deposited data

Results flagged for a closer look

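Of 64 sets of 4 libraries (32 genes in each group), 7 held 1 library far from the other 3, by the gap to its nearest neighbour over the whole range; chance gives about 1 in 20 such sets, or 3.2 here. Both aars-1 and qars-1 had this in cpr-6 RNAi replicate 4. The alanyl mitochondrial gene aars-1 was high there, at 5.62 CPM, against 4.11 to 4.34 CPM in the other cpr-6 RNAi libraries. The glutaminyl gene qars-1 was low there, at 62.7 CPM, against 100 to 105 CPM in the other cpr-6 RNAi libraries. fars-1 was high in cpr-6 RNAi replicate 2, at 43.2 CPM, against 36.7 to 37.1 CPM in the others of its group. pars-1 was high in cpr-6 RNAi replicate 3, at 122 CPM, against 104 to 106 CPM in the others. In the empty vector group, aars-2 was high in replicate 1, at 290 CPM, against 258 to 263 CPM in the others. cars-1 was high in empty vector replicate 4, at 131 CPM, while the others were at 125 CPM. nars-2 was low in empty vector replicate 4, at 1.76 CPM, against 3.37 to 3.63 CPM in the others.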

How the results depend on the processing

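No alternative called a synthetase gene. The count of called genes over the whole table was 1, and became 28 without a filter on low counts, 5 with DESeq2, 121 with replicates 1 and 2 alone and 1 to 3 with each library left out in turn; the cause was not tested. Deviations of same-numbered libraries correlated at -0.03, 0.12, 0.02 and 0.25, and those of other pairs across the groups at -0.169 to 0.185. These few values do not settle whether the replicate numbers pair the libraries. With the replicate number as a block the count of called genes was 2. The log2 ratio of the cytosolic to the mitochondrial median was 3.19 under cpr-6 RNAi and 3.21 with the empty vector. It was 3.65 under cpr-6 RNAi and 3.65 with the empty vector per kb of coding length, 2.44 under cpr-6 RNAi and 2.69 with the empty vector when genes were divided by suffix, and 3.51 under cpr-6 RNAi and 3.42 with the empty vector without vars-1, yars-1 and yars-2. The medians of the log2 fold changes moved from their values over all libraries by less than the spread between libraries in every alternative. For cytosolic members the median lay lowest, at -0.08, with replicates 3 and 4 alone. With each library left out the medians ran from -0.06 to -0.01 for cytosolic and from -0.05 to 0.04 for mitochondrial members.

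The count of members below 0 was 19 of 31 with the strict filter, where 48.4% of all genes lay below 0, and 26 of 32 without a filter. The log2 fold change of pars-2 was 0.29 to 0.694 with each library left out in turn. Of 31 members, 8 kept the sign of their log2 fold change in all 18 alternatives. With replicates 1 and 2 alone the signs of aars-1 (0.009), cars-1 (0.022), dars-2 (0.022), qars-1 (0.08), ears-1 (0.014), fars-3 (0.019), iars-2 (0.092), sars-2 (-0.042), tars-1 (0.049) and yars-2 (-0.095) turned. With replicates 3 and 4 alone those of dars-1 (0.012), fars-1 (-0.068), gars-1 (0.05), hars-1 (0.048), iars-1 (-0.008), mars-1 (0.016), nars-2 (0.313), pars-1 (0.009), rars-1 (0.006), vars-1 (-0.055) and yars-1 (-0.101) turned. With upper quartile scaling dars-1 (0.01), gars-1 (0.014), hars-1 (0.011) and iars-2 (0.015) turned, and with the strict filter dars-1 (0.004), gars-1 (0.008), hars-1 (0.004) and iars-2 (0.007) turned. Without a filter fars-1 (-0.008) and sars-2 (-0.017) turned, with voom gars-1 (0.002) and nars-2 (0.02), and with RLE scaling and DESeq2 sars-2 (-0.004 each).

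With each library left out in turn, the log2 fold change ran from -0.134 to 0.098 for aars-1, -0.082 to 0.02 for aars-2, -0.043 to 0.047 for dars-1, -0.047 to 0.047 for fars-1, -0.03 to 0.05 for gars-1, -0.064 to 0.036 for hars-1, -0.075 to 0.034 for iars-2, -0.067 to 0.009 for kars-1 and -0.045 to 0.009 for mars-1. It ran from -0.235 to 0.094 for nars-2, -0.107 to 0.105 for qars-1, -0.052 to 0.053 for sars-2, -0.081 to 0.056 for tars-1, -0.047 to 0.136 for vars-1, -0.051 to 0.13 for yars-1 and -0.019 to 0.096 for yars-2. The scarce members have the widest intervals, and wars-1 had too few counts to be tested.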

Other observations

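Beyond the name rule and glp-4, 4 genes of the table carry a deposited tRNA ligase term, and they were chosen by that term. prx-10, with a tryptophan term and a mitochondrion term, had 9.15, 11.5, 8.49 and 10.3 CPM under cpr-6 RNAi, against 12.6, 13.4, 12 and 11 CPM with the empty vector. The groups overlapped in 1 library of each (log2 fold change -0.30; unadjusted p = 0.0573 and adjusted p = 0.997, edgeR). Y105E8A.20, which RefSeq names mars-2, had 2.05, 1.10, 1.29 and 1.22 CPM under cpr-6 RNAi, against 2.85, 1.97, 1.84 and 1.92 CPM with the empty vector. It had the widest change of these genes (log2 fold change -0.56; unadjusted p = 0.0904 and adjusted p = 0.997, edgeR), from 57 counts under cpr-6 RNAi and 91 with the empty vector. K03B4.1, with a serine term, averaged 24.8 ± 2.96 CPM under cpr-6 RNAi and 25.4 ± 1.58 CPM with the empty vector. Y54E10A.6, with a phenylalanine term, averaged 4.42 ± 1.10 CPM under cpr-6 RNAi and 5.26 ± 0.710 CPM with the empty vector. Neither passed the test. Per kb, prx-10 stood at 16.8 ± 7.64 times wars-1 under cpr-6 RNAi and at 18.4 ± 5.8 times with the empty vector. prx-10 was above wars-1 in 8 of 8 libraries, with the limit on the 3′ end of wars-1 given above. In methionine the cytosolic gene was higher, with mars-1 at 34.5 ± 9.26 times Y105E8A.20 under cpr-6 RNAi and 22.5 ± 3.63 times with the empty vector.

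glp-4 had 85.2, 87.8, 94.8 and 59.5 CPM under cpr-6 RNAi, against 93.7, 80.2, 101 and 88.0 CPM with the empty vector. Its lowest library was cpr-6 RNAi replicate 4, as for tars-1, kars-1 and qars-1, and its log2 fold change was -0.13 (adjusted p = 0.997, edgeR).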
